A study of Oryza sativa with 2 samples.

Results

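A set of 255 well-expressed rice leaf genes stood at least 2-fold lower in the *yl-1*-labelled library than in the wild-type-labelled library. They were selected on their deposited FPKM values. FPKM is the number of sequenced fragments of a transcript, corrected for transcript length and for how many fragments of the library mapped. A gene entered the set when it was above 0 in both libraries, averaged at least 5 FPKM over the 2 libraries and had a log2((FPKM + 1) ratio) of -1 or less, *yl-1* over wild-type. Of the 42152 entries in the table, 8851 met the conditions on level and were compared. The 255 members are therefore 2.88% of the entries compared. Since this ratio chose them, the ratios below are descriptions of 2 libraries and carry no test.

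The *yl-1* mutant came from an EMS-mutagenized library of *indica* rice cv. Zhongjiazao 17, and the unmutagenized cultivar was the wild-type. Leaves of 4-week-old plants of both genotypes were sampled, and the labels describe seedlings on 1/2 MS medium in a growth chamber at 26°C with 12 h of light a day at 300 μmol m−2 s−1. Each genotype is represented by 1 library, so there is no replicate error, and any difference between plants, any other EMS-induced change and the *YL-1* mutation cannot be told apart. In leaf RNA, fewer cells that make a transcript and less of it per cell cannot be told apart either.

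The genotype names are those of the deposited columns. The list of selected genes that accompanies the study heads its columns the other way round. Of 48 values in that list, 41 equalled, to 2 decimals, the column of the other genotype in the table and 0 that of the same genotype. The values equal to neither column were the wild-type value of *PsbR* and the *yl-1* values of *HEME2*, *HEMF1*, *HEMG1*, *CHLH*, *OsChlI* and *CHLM*. Apart from *PsbR*, these genes are higher in *yl-1* under the headings of the list and of the table alike. For them the list and the table differ by more than exchanged headings. No member is in that list. If the headings of the table were exchanged, every gene called lower here would be higher in *yl-1*. For that reason the libraries are named by their labels throughout. Which headings are right cannot be told from the table. The paper also measured *YL-1* and other chlorophyll genes by qRT-PCR in both genotypes. Those measurements bear on the headings and are not reported here. For the mutated gene, *YL-1* (LOC_Os01g17170), the level was 1124 FPKM in the *yl-1*-labelled library and 671 FPKM in the wild-type-labelled library. Its mutation is a single-base change that replaces an amino acid.

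*YL-1* encodes a subunit of the cyclase that closes the fifth ring of the chlorophyll molecule, turning Mg-protoporphyrin IX monomethyl ester into divinyl protochlorophyllide. Leaves with too little of this activity make less chlorophyll and turn yellow. Transcripts of the photosynthetic apparatus dominate the mRNA of a green leaf, and most other genes are read at far lower levels. Plant genomes also hold many tandem arrays, in which copies of 1 ancestral gene lie side by side. The locus IDs used in the table give the chromosome and then a number that increases along it. Consecutive IDs of the table most often differed by 10 (28905 of 41969 steps).

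Both libraries carried the transcripts of a green leaf. *PsbO* (LOC_Os01g31690), which belongs to the oxygen-evolving complex, was at 5206 FPKM in the *yl-1*-labelled library and at 3824 FPKM in the wild-type-labelled library. *PSI-N* (LOC_Os12g08770) and *PsaL* (LOC_Os12g23200), subunits of photosystem I, were at 3789 and 2578 FPKM in the *yl-1*-labelled library, against 3192 and 2212 FPKM in the wild-type-labelled library. These genes are no members and were higher in the *yl-1*-labelled library, with log2 ratios of 0.22 (*PsaL*), 0.25 (*PSI-N*) and 0.45 (*PsbO*). All FPKM values summed to 823855 in the *yl-1*-labelled library and to 738866 in the wild-type-labelled library. Transcript lengths and fragment totals are not in the table, so the number of fragments behind a value is unknown. Markers of other cell types were not analysed here, because no source in hand pairs them with these IDs.

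None of the 255 members could be given a name from the sources in hand. The table lists IDs alone. Of all its 41981 IDs, 0 matched the RefSeq gene table of assembly ASM3414082v1 as written and 1, no member, without its prefix. The lack of names therefore says nothing about the members themselves. Of the 24 genes that the study names, 0 were members, beside 2.88% of all entries compared. The members are therefore described by ID, level, size of difference and position, and no function is given for any of them. Of the 24 named genes, 22 met the conditions on level, and of these 1 was lower in the *yl-1*-labelled library. All the others of the 22 were higher there. Only the Chl a-b binding protein gene LOC_Os01g14410 passed 2-fold, with 1181 FPKM in the *yl-1*-labelled library and 243 FPKM in the wild-type-labelled library. Of all entries compared, 48.4% had a log2 ratio below 0. The study selected its listed genes as differing between the genotypes, so their directions do not represent genes in general.

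The named gene nearest to the set was *OsClpD1* (LOC_Os02g32520), a chaperone subunit of the chloroplast Clp protease system. It was read at 62.1 FPKM in the *yl-1*-labelled library and at 121 FPKM in the wild-type-labelled library, a log2 ratio of -0.95 that falls just short of the threshold. *PsbR* (LOC_Os07g05365), another photosystem II subunit, was listed at 0 in the *yl-1*-labelled library and at 7.70 FPKM in the wild-type-labelled library, and was left out for its zero and its low mean. Such zeros kept few genes out. Among entries with a mean of at least 5 FPKM, 13 were listed at 0 in the *yl-1*-labelled library, and 15 in the wild-type-labelled library.

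The members had mean levels between 5.00 and 2575 FPKM, whereas the entries compared reached 38399 FPKM. In the *yl-1*-labelled library they lay between 0.0510 and 1558 FPKM with a median of 7.77, and in the wild-type-labelled library between 7.08 and 3593 FPKM with a median of 23.5. Their mean over both libraries had a median of 15.5 FPKM, beside 15.8 FPKM for all entries compared. The members together made up 1.16% of all FPKM in the *yl-1*-labelled library and 3.19% in the wild-type-labelled library. Their sum was 9597 FPKM in the *yl-1*-labelled library, against 23607 FPKM in the wild-type-labelled library, although the sum over the whole table was larger in the *yl-1*-labelled library. The 10 most abundant members made up 44.8% of that difference.

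**Figure D1:**
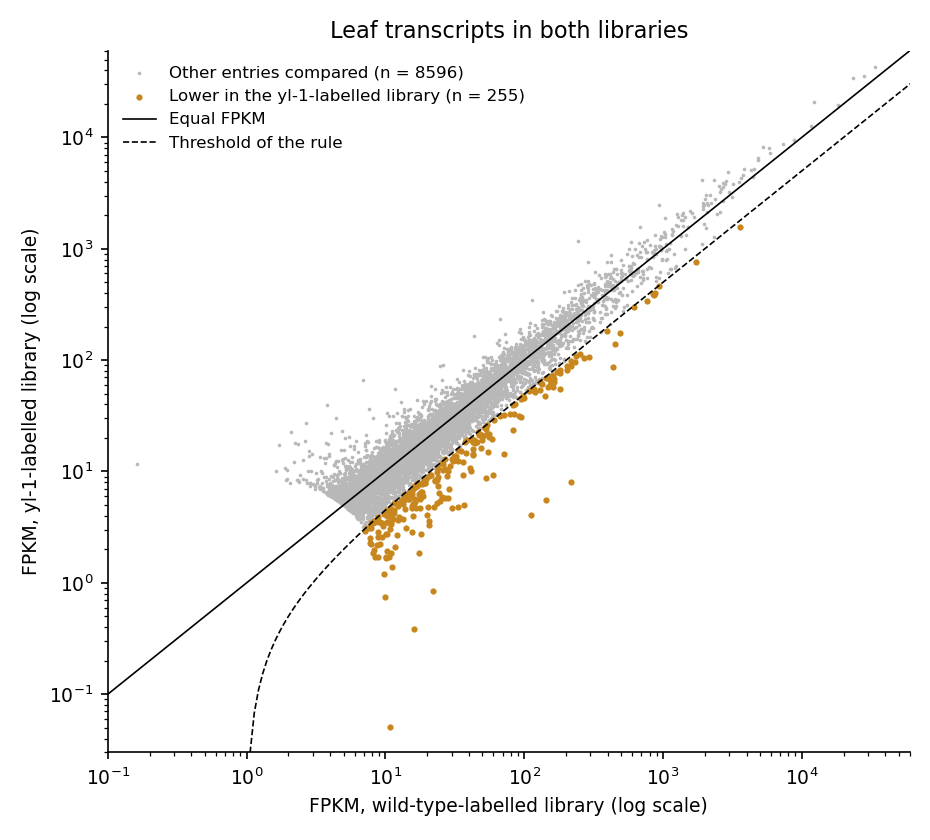
FPKM of each of the 8851 entries compared in the *yl-1*-labelled library (vertical axis) against the wild-type-labelled library (horizontal axis), both on log scales. The 255 members lie below the dashed threshold line, up to 3593 FPKM in the wild-type-labelled library, and 3 of them stand far below it at 112 to 217 FPKM in the wild-type-labelled library.

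Most of the differences were modest. The median log2 ratio of the members was -1.26, with quartiles of -1.54 and -1.10, against 0.012 for all entries compared. Of the 255, 108 lay between -1 and -1.2, 76 between -1.2 and -1.5, 41 between -1.5 and -2, 24 between -2 and -3, and 6 below -3. On the same scale, 58 members were at least 3-fold lower, 30 at least 4-fold, 6 at least 8-fold and 3 at least 16-fold. For comparison, 139 entries were at least 2-fold higher in the *yl-1*-labelled library, which is 1.57% of those compared. Their median log2 ratio was 1.31, 19 of them were at least 4-fold higher, and none reached 16-fold.

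On the log2((FPKM + 1) ratio) scale, 3 members had the lowest ratios by a wide margin. LOC_Os01g43460 was read at 8.05 FPKM in the *yl-1*-labelled library and at 217 FPKM in the wild-type-labelled library (log2 ratio -4.59). LOC_Os05g28740 was at 4.08 FPKM in the *yl-1*-labelled library and at 112 FPKM in the wild-type-labelled library (-4.47). The entry that joins LOC_Os07g47940 and LOC_Os07g47950 was at 5.54 FPKM in the *yl-1*-labelled library and at 143 FPKM in the wild-type-labelled library (-4.46). All 3 were thus abundant transcripts in the wild-type-labelled library and were weak transcripts in the *yl-1*-labelled library. The values of the joined entry cannot be divided between its loci, but LOC_Os07g47950 also has an entry of its own, at 0.0493 FPKM in the *yl-1*-labelled library and at 0.174 FPKM in the wild-type-labelled library.

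The next 3 were weaker transcripts that were almost unread in the *yl-1*-labelled library. LOC_Os07g34520 was at 0.843 FPKM in the *yl-1*-labelled library, against 22.0 FPKM in the wild-type-labelled library (-3.64). LOC_Os04g38680 was at 0.389 FPKM in the *yl-1*-labelled library, against 16.1 FPKM in the wild-type-labelled library (-3.63). LOC_Os02g43330 was at 0.0510 FPKM in the *yl-1*-labelled library, the lowest level of any member there, against 10.7 FPKM in the wild-type-labelled library (-3.48). For levels this close to 0 the pseudocount of 1 FPKM sets the ratio, and it understates the difference between the FPKM values themselves. Without it the log2 ratios of these 3 would be -4.71, -5.37 and -7.72, and the order would change. LOC_Os02g43330 and LOC_Os04g38680 would then come before LOC_Os01g43460 (-4.75), LOC_Os05g28740 (-4.78) and the joined entry (-4.69).

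The other 4 of the 10 lowest ratios lay between -2.69 and -2.57. LOC_Os03g17790 was at 1.84 FPKM in the *yl-1*-labelled library and at 17.3 FPKM in the wild-type-labelled library. LOC_Os01g68650 was at 0.744 FPKM in the *yl-1*-labelled library and at 9.91 FPKM in the wild-type-labelled library. LOC_Os02g45170 and LOC_Os03g22210 were at 5.05 and 4.77 FPKM in the *yl-1*-labelled library, against 36.7 and 33.3 FPKM in the wild-type-labelled library. The 10 lowest ratios fell on 6 chromosomes, and only the joined entry had another member within 100 ID numbers.

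The most abundant members differed by little more than 2-fold. LOC_Os01g15270 was the highest of all, with 1558 FPKM in the *yl-1*-labelled library and 3593 FPKM in the wild-type-labelled library (log2 ratio -1.21), and it alone made up 14.5% of the difference in summed FPKM. LOC_Os04g02670 followed with 757 FPKM in the *yl-1*-labelled library and 1738 FPKM in the wild-type-labelled library (-1.20). In the wild-type-labelled library the first of these was therefore read about as strongly as the photosystem gene *PsbO* (3824 FPKM), while in the *yl-1*-labelled library it stood well below *PsbO* (5206 FPKM).

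A further 6 members lay between 303 and 463 FPKM in the *yl-1*-labelled library and between 623 and 937 FPKM in the wild-type-labelled library. They were LOC_Os03g60080 (-1.01), LOC_Os07g08970 (-1.14), LOC_Os01g72080 (-1.12), LOC_Os07g39350 (-1.16), LOC_Os02g52210 (-1.15) and LOC_Os03g08940 (-1.04), where the number after each ID is its log2 ratio. The last 2 of the 10 most abundant members showed larger differences. LOC_Os09g36930 was at 174 FPKM in the *yl-1*-labelled library and at 493 FPKM in the wild-type-labelled library (-1.50), and LOC_Os09g20390 was at 140 FPKM in the *yl-1*-labelled library and at 449 FPKM in the wild-type-labelled library (-1.67).

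**Figure D2:**
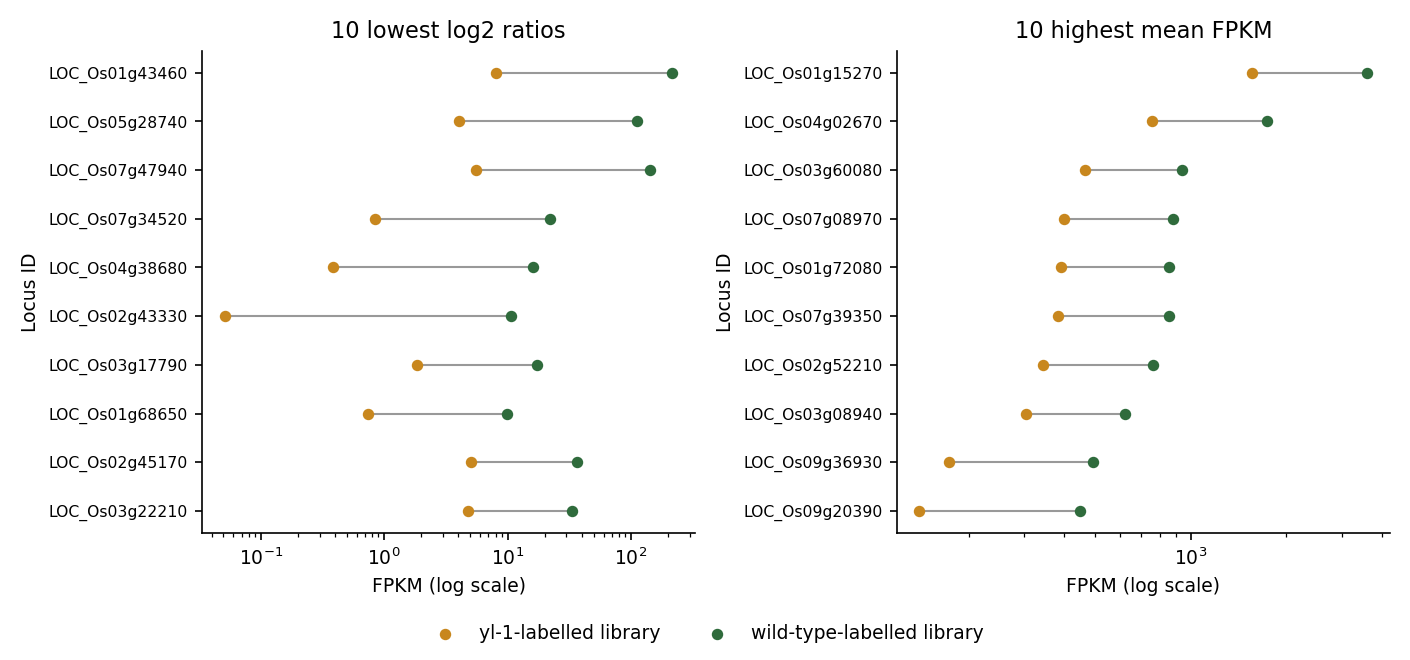
FPKM on log scales for the 10 members with the lowest log2 ratios (left) and the 10 with the highest mean FPKM (right), with 1 point for the *yl-1*-labelled library and 1 for the wild-type-labelled library, joined by a line. LOC_Os07g47940 stands for the entry that joins 2 loci. The left panel holds the lowest *yl-1* value of any member (0.0510 FPKM), while every gene of the right panel stays at 140 FPKM or more in both libraries.

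The share of lower genes did not follow expression level closely. It was 2.69% of the 2821 entries compared with a mean of 5 to 10 FPKM, 3.06% at 10 to 20, 2.40% at 20 to 50, 3.13% at 50 to 100, 3.90% at 100 to 500 and 3.50% of the 200 entries at 500 FPKM or more. The share of higher genes was below it in each of these ranges, at 0.782% to 3.0%. The general spread was also much the same at all levels, with an SD of the log2 ratio over entries of 0.449 to 0.523. This is a spread between genes of 2 libraries and not a replicate error.

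Large differences were found at low, at intermediate and, in 2 members, at high levels. A log2 ratio of -2 or less was found for 12 of the 76 members under 10 FPKM in mean, for 16 of the 143 members at 10 to 100 FPKM and for 2 of the 36 members at 100 FPKM or more. The last 2 were LOC_Os01g43460, described above, and LOC_Os01g11600, which was at 85.9 FPKM in the *yl-1*-labelled library and at 438 FPKM in the wild-type-labelled library (-2.34). In the *yl-1*-labelled library, 80 of the 255 members were under 5 FPKM and 15 were at 100 FPKM or more.

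The threshold cut through a dense range of values. The 3 members just inside it were LOC_Os03g07530, LOC_Os06g39270 and the entry joining LOC_Os03g51660 and LOC_Os03g51670, with log2 ratios of -1.0008 to -1.0033. LOC_Os03g07530 was at 53.2 FPKM in the *yl-1*-labelled library and at 107 FPKM in the wild-type-labelled library. Just outside were LOC_Os01g62460, LOC_Os01g58420 and LOC_Os01g02900, with ratios of -0.9997 to -0.9968, and LOC_Os01g62460 was at 78.7 FPKM in the *yl-1*-labelled library and at 158 FPKM in the wild-type-labelled library. Between -1 and -1.1 lay 62 members (24.3%), and 61 entries lay between -0.9 and -1. Membership of these genes depends on small shifts in scale.

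Members were found on all 12 chromosomes. Chromosome 1 held the most, 47 of its 1330 entries compared (3.53%), and chromosomes 4 and 6 had similar shares, 26 of 738 (3.52%) and 24 of 685 (3.50%). Chromosome 12 had the smallest share, 6 of 405 (1.48%), and was the only chromosome on which the higher genes (9, or 2.22%) outnumbered the lower ones. On chromosome 1, by contrast, 13 genes were higher (0.977%). With 6 members on 1 chromosome these shares are coarse, and they were not tested.

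**Figure D3:**
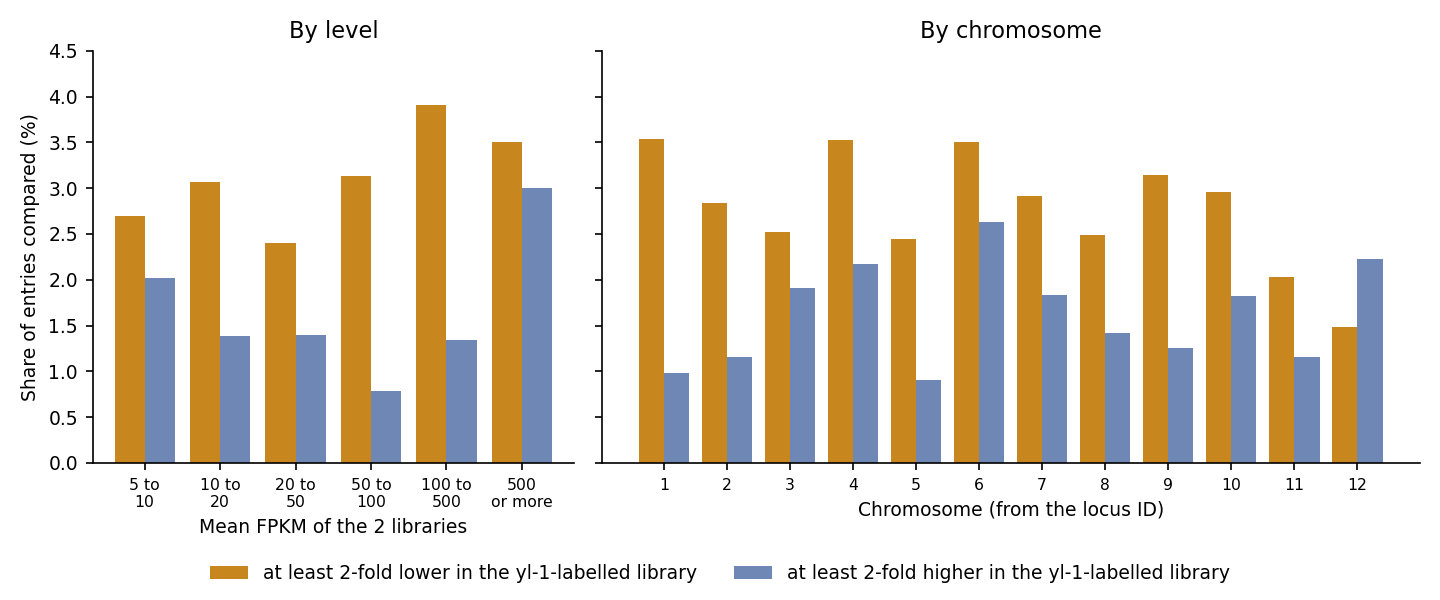
Share of the entries compared, in percent, that were at least 2-fold lower or at least 2-fold higher in the *yl-1*-labelled library, by mean FPKM (left) and by chromosome (right). Lower genes exceed higher genes in every range of level and on every chromosome except 12, where 1.48% were lower and 2.22% higher.

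No member lay close to *YL-1*. The nearest on chromosome 1 were LOC_Os01g15270, the most abundant member, on one side and LOC_Os01g27210 on the other, which was at 99.1 FPKM in the *yl-1*-labelled library and at 218 FPKM in the wild-type-labelled library. The 132 entries compared between them lie above the threshold by the choice of this window, so they cannot show whether the region was unchanged. Their median log2 ratio was 0.045 and the lowest was -0.89. At least 2-fold higher in the *yl-1*-labelled library were 5 of the 132, beside 1.57% of all entries compared. Within 1000 ID numbers of *YL-1* 36 entries were compared, with a median of 0.13 and a lowest value of -0.60. The short-arm ends of chromosomes 11 and 12 are near copies of each other in rice, so fragments can be shared between them. ID numbers below 8000 were taken for these ends, a bound set without a source. Of the 225 entries compared below it, 1 was a member, beside 2.88% of all entries compared. This was LOC_Os12g07490, at 56.9 FPKM in the *yl-1*-labelled library and at 149 FPKM in the wild-type-labelled library. Whether it lies in copied sequence was not tested.

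Some members were neighbours. Linking members whose IDs lie within 100 of each other on 1 chromosome gave 20 clusters with 43 members (16.9%), of which 17 were pairs and 3 held 3 genes. The higher genes gave 8 clusters with 18 of 139 genes (12.9%) by the same linking. These shares depend on how many genes a set holds. The share of neighbours that are themselves lower depends on it less. Of all 1103 pairings of a member with an entry compared within 100 ID numbers, 52 were with another lower gene (4.71%), beside 2.86% around all entries compared. In all these counts, 2 genes of the same set near each other are counted once from each side. Around the higher genes, 22 of 543 such neighbours were higher (4.05%), beside 1.41% around all entries. Neighbours in the opposite direction were also somewhat more frequent than around all entries, since 1.81% of the neighbours of members were higher and 3.68% of the neighbours of higher genes were lower. The neighbours as a whole lay near 0, with a median log2 ratio of -0.028 over the neighbours of members and 0.0023 over those of all entries.

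The cluster with the largest differences was on chromosome 7. The joined entry LOC_Os07g47940,LOC_Os07g47950 was described above (5.54 FPKM in the *yl-1*-labelled library, 143 FPKM in the wild-type-labelled library). LOC_Os07g47990 was at 4.67 FPKM in the *yl-1*-labelled library and at 15.6 FPKM in the wild-type-labelled library (-1.55), and LOC_Os07g48020 was at 5.85 FPKM in the *yl-1*-labelled library and at 25.4 FPKM in the wild-type-labelled library (-1.95). The 3 genes had similar levels in the *yl-1*-labelled library and very different ones in the wild-type-labelled library. LOC_Os07g48010, which lies between the last pair, was no member, with 11.2 FPKM in the *yl-1*-labelled library and 12.1 FPKM in the wild-type-labelled library (-0.10), and LOC_Os07g47960 and LOC_Os07g47970 were listed at 0 in both libraries.

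The other clusters of 3 genes were on chromosome 1. In one of them LOC_Os01g11600 (85.9 FPKM in the *yl-1*-labelled library, 438 FPKM in the wild-type-labelled library) was far more abundant than its companions. LOC_Os01g11520 was at 3.76 FPKM in the *yl-1*-labelled library and at 13.4 FPKM in the wild-type-labelled library (-1.60), and LOC_Os01g11570 was at 5.67 FPKM in the *yl-1*-labelled library and at 16.4 FPKM in the wild-type-labelled library (-1.38). Next to LOC_Os01g11570, LOC_Os01g11580 was nearly equal, with 13.7 FPKM in the *yl-1*-labelled library and 13.3 FPKM in the wild-type-labelled library. A pair of weaker loci in the same stretch was too low to be compared. LOC_Os01g11550 was at 0.482 FPKM in the *yl-1*-labelled library and at 1.93 FPKM in the wild-type-labelled library, and LOC_Os01g11590 at 2.79 FPKM in the *yl-1*-labelled library and at 4.23 FPKM in the wild-type-labelled library.

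In the other cluster of chromosome 1 LOC_Os01g64300 and LOC_Os01g64310 carry adjacent IDs. LOC_Os01g64300 was at 7.82 FPKM in the *yl-1*-labelled library and at 19.2 FPKM in the wild-type-labelled library (-1.20), and LOC_Os01g64310 was at 10.8 FPKM in the *yl-1*-labelled library and at 40.4 FPKM in the wild-type-labelled library (-1.81). LOC_Os01g64360 completed the cluster with 39.3 FPKM in the *yl-1*-labelled library and 83.1 FPKM in the wild-type-labelled library (-1.06). The 3 further loci listed between them were all under 5 FPKM in both libraries.

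Among the 20 clusters, 4 pairs of members had IDs that differ by 10 and may be next to each other. Besides LOC_Os01g64300 and LOC_Os01g64310 these included LOC_Os01g32770 and LOC_Os01g32780. LOC_Os01g32770 was at 12.2 FPKM in the *yl-1*-labelled library and at 36.5 FPKM in the wild-type-labelled library, and its neighbour LOC_Os01g32780 at 5.23 FPKM in the *yl-1*-labelled library and at 23.5 FPKM in the wild-type-labelled library. LOC_Os05g39050 and LOC_Os05g39060 had almost the same log2 ratio, -1.25 and -1.24, at 12.3 and 18.1 FPKM in the *yl-1*-labelled library, against 30.7 and 44.3 FPKM in the wild-type-labelled library. LOC_Os04g48840 and LOC_Os04g48850 were also close, at -1.01 and -1.06. Whether fragments were assigned by strand is not given in the sources used here, so genes that overlap a neighbour may share fragments with it.

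Other entries compared lay between the members in 9 of the 20 clusters, 17 in all. The rule itself places them above the threshold, since any entry at or below it would be a member. They therefore cannot show whether the lower level extends through a cluster. Of these 17, 6 were below 0 and 11 above, their median log2 ratio was 0.10, and they reached from -0.68 to 1.22. The last value lies inside the pair LOC_Os03g55450 and LOC_Os03g55540, and it passed 2-fold in the direction opposite to its neighbours. Without the sequences or descriptions of these loci, it was not tested whether the members of a cluster are copies of 1 gene.

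**Figure D4:**
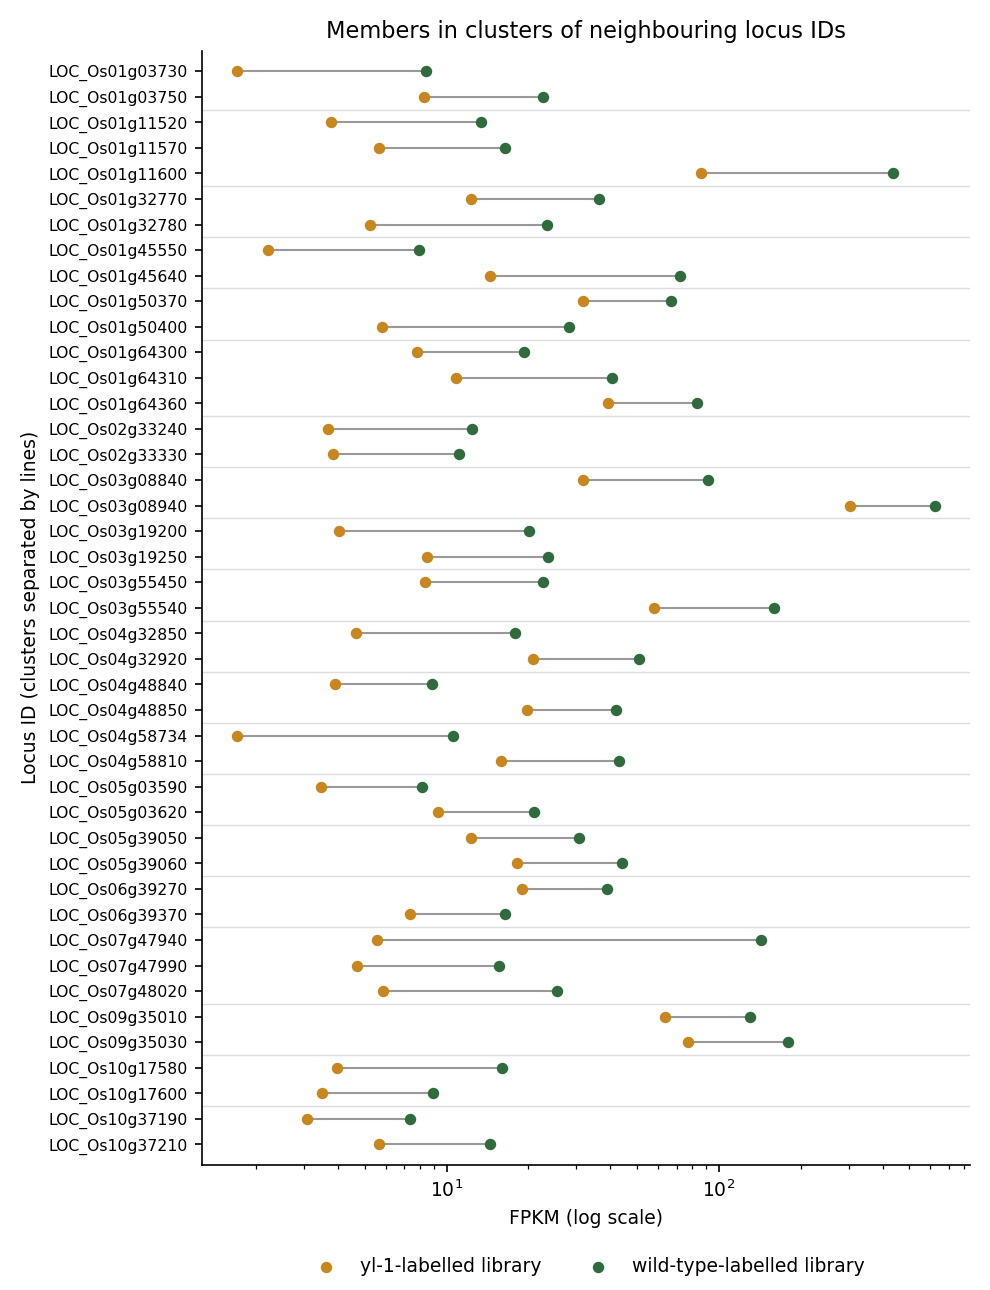
FPKM on a log scale of the 43 members that lie in 20 clusters of neighbouring locus IDs, with 1 point for the *yl-1*-labelled library and 1 for the wild-type-labelled library. Most clusters are pairs with differences of 2-fold to 4-fold, and the largest difference is that of the joined entry LOC_Os07g47940, with 5.54 FPKM in the *yl-1*-labelled library and 143 FPKM in the wild-type-labelled library.

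Some members have a second entry under the same ID, and the table does not say how such entries differ. This concerned 12 of the 255, and in 9 of them another entry was above 0. In 6 of these the log2 ratio of the sums over all entries of the ID was above -1, between -0.95 and -0.22, so the locus as a whole was lower by less than the threshold. LOC_Os04g26590 showed this most clearly. Its member entry was at 4.75 FPKM in the *yl-1*-labelled library and at 20.1 FPKM in the wild-type-labelled library, whereas its other entry was at 67.8 FPKM in the *yl-1*-labelled library and at 64.8 FPKM in the wild-type-labelled library, and the log2 ratio of the sums was -0.22.

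In 7 of the 12 the other entries were higher in sum in the *yl-1*-labelled library, in some of them by little. LOC_Os02g48870 and LOC_Os07g06420 were among these 7, each through its second entry. For LOC_Os02g48870 it was at 4.74 FPKM in the *yl-1*-labelled library and at 0.350 FPKM in the wild-type-labelled library, and the sums gave -0.24. For LOC_Os07g06420 it was at 10.9 FPKM in the *yl-1*-labelled library and at 4.46 FPKM in the wild-type-labelled library, and the sums gave -0.65. A pair of clusters rests on such entries, because the 4 entries of LOC_Os10g17580 sum to a ratio of -0.47 and the 2 of LOC_Os05g03590 to -0.48. The 2 joined entries among the members could not be divided between their loci.

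The number of lower genes depended on how the libraries are scaled. The library labelled *yl-1* had the larger FPKM sum, and rescaling both libraries to the same sum shifted the median log2 ratio of all entries compared to -0.13. It gave 365 lower and 100 higher genes (78.5% lower), beside 255 and 139 (64.7% lower) without rescaling. This rescaling lowers every ratio, so none of the 255 members could leave the set. Setting the upper quartiles equal raises every ratio, so no further gene could enter, and 238 of the members stayed at least 2-fold lower.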

How the data were processed

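Leaf mRNA of 1 *yl-1* and 1 wild-type library was analysed. The authors deposited FPKM values in 1 table, and the submitters' processing notes name TopHat, Cufflinks and Cuffdiff. No version is stated, and genome build, annotation, strand setting and filters were not given in the sources used here. Columns were assigned by name, with 0 value columns unused.

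Entries above 0 in both libraries with a mean of at least 5 FPKM were compared as log2((FPKM + 1) ratio), *yl-1* over wild-type, and those at -1 or less formed the set. The ratio understates differences of weak transcripts. With 1 library per genotype no test across genotypes was possible, and p-values are not given. Depth is unknown, because transcript lengths and fragment totals are not in the table, so no counting interval is given.

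Clusters chained distinct loci within 100 ID numbers, with joined entries placed by their first locus. IDs were matched to RefSeq (ASM3414082v1) as written and without their prefix. Of 41981 IDs, 1 matched without its prefix, and it is no member. The members and lists were chosen with earlier results of these data known. Genes named were the 10 lowest ratios, the 10 most abundant, clusters of 3, genes nearest to the threshold, up to 4 with a second entry and the genes that the study names. LOC_Os01g27210, LOC_Os12g07490, LOC_Os05g03590 and the genes of pairs were named after their values were seen. The code of the rule and of the clustering was checked on planted ratios without noise and on made-up IDs, which measures no error rate. Other pseudocounts, filters, thresholds, scalings and ID distances were tried. Python 3.11.15, numpy 2.4.6, pandas 2.3.3 and matplotlib 3.10.9 were used.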

Additional observations from a re-analysis of the deposited data

How the results depend on the processing

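No paired analysis was possible because each genotype has a single library. Against 255 lower genes, a mean of at least 1 FPKM gave 455, no minimum 473, a 1.5-fold threshold 777 and a 4-fold threshold 30. The number in clusters, 43, became 125, 132, 290 and 0 in the same order, 26 at a mean of at least 10 FPKM, 91 after rescaling to the same sum and 77 with IDs within 200. The filters and thresholds change how many genes enter, and a wider distance links more of the same genes. Other pseudocounts (270 to 298 lower genes), the other scalings (238 to 261), zeros kept (268) and entries of 1 ID summed (252, of which 249 were members) stayed near the main count. The median log2 ratio of the members lay between -1.41 and -1.22 over 3 pseudocounts and 4 scalings. Of 46 members named, 6 moved above -1, all with equal upper quartiles. None turned positive, but genes selected at -1 or less could not do so under such small shifts. The unknown depth limits every value near 0.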
